A study of Mus musculus with 12 samples.

Results

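Messenger RNA of the ribosomal protein genes was followed in mouse embryonic stem (ES) cells in which the histone demethylase gene Kdm5c had been knocked down. All genes were taken whose array symbol begins with Rpl, Rps, Mrpl or Mrps and a number, with Rplp0, Rplp2 and Rpsa added and with Rps6k kinases and Rpl39l left out. That gave 136 of the 18322 genes with a symbol on the array: 61 of the cytosolic ribosome (39 of the large and 22 of the small subunit by name) and 75 of the mitochondrial ribosome (46 large, 29 small). The rule uses symbols and no measured value, though it was set with earlier results of these data known. The cytosolic set holds 51 plain ribosomal protein symbols, 5 paralogs (Rpl3l, Rpl7l1, Rpl22l1, Rpl36al and Rps27l), 4 loci that RefSeq lists as pseudogenes (Rpl18-rs8, Rpl26-ps1, Rpl32-ps and Rps4y2) and Rps19bp1, a binding protein of Rps19. Rplp1 was not analysed here, and genes under other symbols are compared at the end.

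Cytosolic ribosomes translate the messages of the nuclear genome, and their proteins are made from some of the most abundant messenger RNAs of a dividing cell, many of which begin with a short pyrimidine tract that couples their translation to growth signals. Mitochondrial ribosomes are a separate machine inside the organelle. They translate only the few respiratory chain subunits of the mitochondrial genome, although their proteins are encoded in the nucleus and imported.

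The cells were IB10, an E14 ES line grown on gelatin in medium with serum and the cytokine LIF. They carried lentiviral pLKO-puro vectors with a non-targeting hairpin (the control line) or with a hairpin against Kdm5c (shKdm5c#1 or shKdm5c#2), were put under puromycin from 24 h after the last infection, and were pooled from surviving colonies into 1 polyclonal line per hairpin. From each of the 3 lines, total RNA of 4 independent cultures, A to D, was hybridised in dye swap against RNA of untreated IB10 cells, with the culture in Cy3 for A and C and in Cy5 for B and D. The reference is labelled as untreated and was taken as 1 preparation, so a ratio against IB10 leaves out the reference's own spread. With 1 line per hairpin, the p-values cover culture-to-culture spread only.

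Values below are log2 of culture over IB10 reference, with the dye term of the linear model removed, for the brightest probe of each gene. A gene is called where limma's adjusted p (Benjamini-Hochberg over 18322 genes) is under 0.05, and ± is the standard error of the fitted log2 difference. Kdm5c itself lay between -0.05 and 0.05 in the control cultures, between -0.75 and -0.48 in shKdm5c#1 and between -0.70 and -0.64 in shKdm5c#2. Its fitted difference from control was -0.64 ± 0.05 in shKdm5c#1 and -0.70 ± 0.05 in shKdm5c#2, with limma adjusted p = 1.66e-07 and 2.98e-08. All 11 measured ES markers were above background on all 12 arrays. Against control, 2 of them were called higher and 2 lower with shKdm5c#1, and 2 higher and 3 lower with shKdm5c#2, beside 18.7% and 22.2% of all genes called in either direction. Of 12 extraembryonic endoderm markers, 7 were above background on all arrays, and 6 fell in shKdm5c#1 and 7 in shKdm5c#2 against control, with 0 higher in either. The log2 values of those 12 genes summed to between 3.24 and 3.92 in the control cultures, against -0.25 to 0.31 in shKdm5c#1 and -0.92 to -0.60 in shKdm5c#2. The 12 fibroblast markers summed to between -0.24 and 0.19 in control, -1.52 and -1.15 in shKdm5c#1, and -2.62 and -1.84 in shKdm5c#2. Of these, 2 were called higher and 5 lower with shKdm5c#1 against control, and 2 higher and 4 lower with shKdm5c#2. The collagen gene Col1a1, named after its values were seen, took much of the sum, with differences from control of -0.75 and -1.46. The part of either marker set in the results below was not tested. Culture C of shKdm5c#2 stood low in both classes, with a median of -0.13 over cytosolic and -0.08 over mitochondrial members. In bulk RNA, fewer cells of a type and less RNA per cell cannot be told apart.

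The promoters of 4 members that were called lower in both knockdown lines are shown first, to set the letters around the start site of cytosolic and mitochondrial members side by side. They are RefSeq sequences of GRCm38.p6, from 60 bases before to 20 bases after the listed start, written in the direction of transcription. Capitals mark a match to a searched motif. Among the members called in both knockdown lines that had a promoter entry, only Rps12 and Mrps22 held such a match in this stretch. They lie at chr10:23787190-23787269 (minus strand, Rps12), chr8:123102290-123102369 (plus, Rpl13), chr9:98601660-98601739 (minus, Mrps22) and chr11:97315656-97315735 (plus, Mrpl45).
Rps12: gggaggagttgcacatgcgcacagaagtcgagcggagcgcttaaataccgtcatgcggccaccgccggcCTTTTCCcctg
Rpl13: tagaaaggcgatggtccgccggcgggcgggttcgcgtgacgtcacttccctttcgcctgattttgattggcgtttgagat
Mrps22: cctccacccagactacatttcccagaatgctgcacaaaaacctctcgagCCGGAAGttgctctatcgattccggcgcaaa
Mrpl45: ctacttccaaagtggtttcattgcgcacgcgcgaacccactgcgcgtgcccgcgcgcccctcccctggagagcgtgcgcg

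Rps12 holds CTTTTCC from base 10 after the listed start. Either TCTTTCC or CTTTTCC was searched on the strand as written here, between 20 bases before and 20 after the start. It occurred in 6 of 48 cytosolic genes with a promoter entry (12.5%). The same letters were found in 1 of 66 mitochondrial genes (1.52%) and in 303 of all 27025 genes (1.12%). CCGGAAG, the core that Ets factors recognise, was searched on both strands from 250 bases before to 50 after the start. It stood in 17 cytosolic genes (35.4%), 23 mitochondrial genes (34.8%) and 2683 of all genes (9.93%). AAGATGG, the core of the Yy1 motif, stood in 8 cytosolic genes (16.7%), 13 mitochondrial genes (19.7%) and 1967 of all genes (7.28%) in the same window. CCGGAAG and AAGATGG can overlap by the letters AAG. A match describes these letters only.

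With shKdm5c#1 more members of either class fell than rose, most of them mitochondrial. Against control, 20 of 75 mitochondrial members (26.7%) were called, 4 higher and 16 lower, beside 18.7% of all genes (9.01% higher, 9.66% lower). Of the 61 cytosolic members 9 (14.8%) were called, 2 higher and 7 lower, a share below the background. The median difference was -0.07 over mitochondrial members, of which 52 of 75 were below 0, and -0.01 over cytosolic members, beside -0.0018 over all genes. Of genes outside the set with a mean intensity in the range of the middle of the mitochondrial members, 31.5% were called, 15.3% higher and 16.2% lower. In that of the cytosolic members 25.1% of other genes were called, 9.6% higher and 15.5% lower. Their median was -0.05, and 273 of 427 were below 0, against 36 of 61 cytosolic members. A difference between these genes and the cytosolic members was not tested. No member reached 1.5-fold in this or any other comparison, and only 0.26% to 1.03% of all genes did.

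With shKdm5c#2 the share of mitochondrial members called was 32% (24 of 75, with 4 higher and 20 lower), beside 22.2% of all genes (9.96% higher, 12.3% lower). Of cytosolic members 7 of 61 (11.5%) were called, all of them lower, and by limma's unadjusted p under 0.05 there were 1 higher and 18 lower, beside 32% of all genes (14.6% higher, 17.4% lower). The median difference was -0.05 over mitochondrial and -0.09 over cytosolic members, with 55 of 75 and 52 of 61 below 0, beside -0.0042 over all genes. In the intensity range of the middle of the cytosolic members, 274 of 427 other genes were below 0, with a median of -0.05, and 26.2% were called. In that of the mitochondrial members 35.6% of other genes were called, 16% higher and 19.6% lower. The cytosolic count rested on single cultures: without shKdm5c#2 C it was 3, without control C or control D 2, and without control B 14. In those fits 18.6% to 21.2% of all genes were called. The mitochondrial count with shKdm5c#1 fell to 11 without control A and to 13 without shKdm5c#1 A, beside 15.5% and 15.9% of all genes. Both knockdown comparisons use the same control cultures. With arrays centred on their medians in place of loess, 0 mitochondrial members were called in either comparison, 1 cytosolic member with shKdm5c#1 and 0 with shKdm5c#2, beside 2.29% and 4.34% of all genes.

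**Figure D1:**
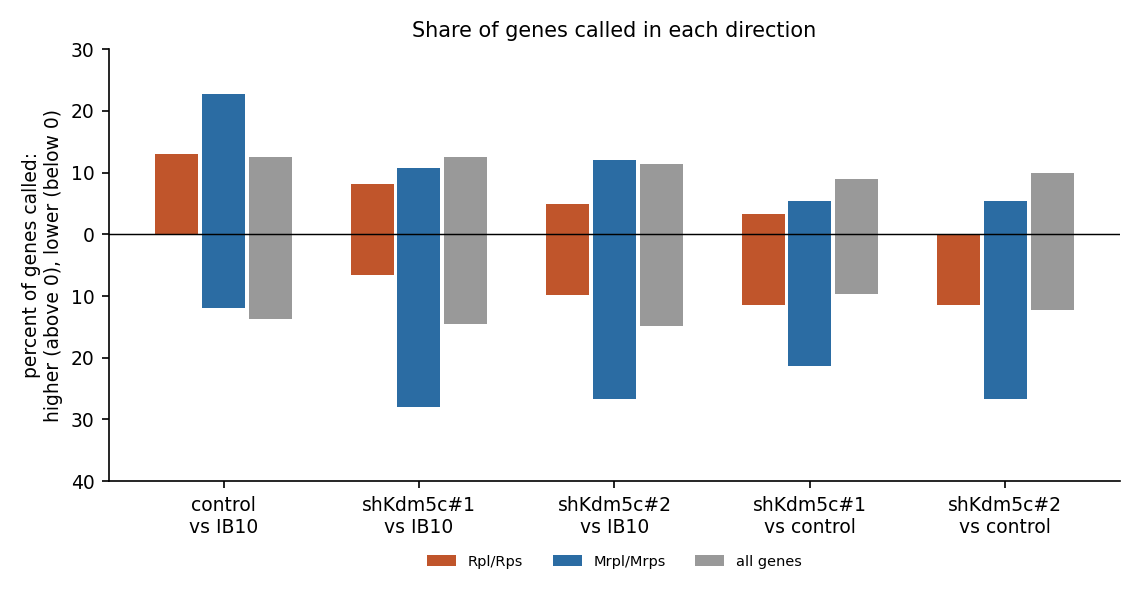
Percent of Rpl/Rps members (orange), Mrpl/Mrps members (blue) and all 18322 genes (grey) called at a limma adjusted p under 0.05, higher above the line and lower below it, in 5 comparisons. Against control, mitochondrial members were called lower for 21.3% with shKdm5c#1 and 26.7% with shKdm5c#2, and higher for 5.33% with each.

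Non-overlap of the cultures was counted on the same dye-adjusted values as the calls, so it is no separate support. The share of all genes was not split by direction. All 4 shKdm5c#1 cultures lay on one side of all 4 control cultures for 33 of 75 mitochondrial members (5 above, 28 below). The same held for 9 of 61 cytosolic members (3 above, 6 below), beside 26.7% of all genes. For shKdm5c#2 these were 23 of 75 mitochondrial members (5 above, 18 below) and 5 of 61 cytosolic members, all below, beside 24.1% of all genes.

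Called with the same sign in both knockdown lines were 2 of 61 cytosolic members, Rpl13 and Rps12, and 9 of 75 mitochondrial members. Of these, Mrpl49 was higher and the other members lower. Of all genes 9.54% were so called (4.45% higher, 5.09% lower), a share above the cytosolic and near the mitochondrial one. The share was not taken over genes of the same intensity range.

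**Figure D2:**
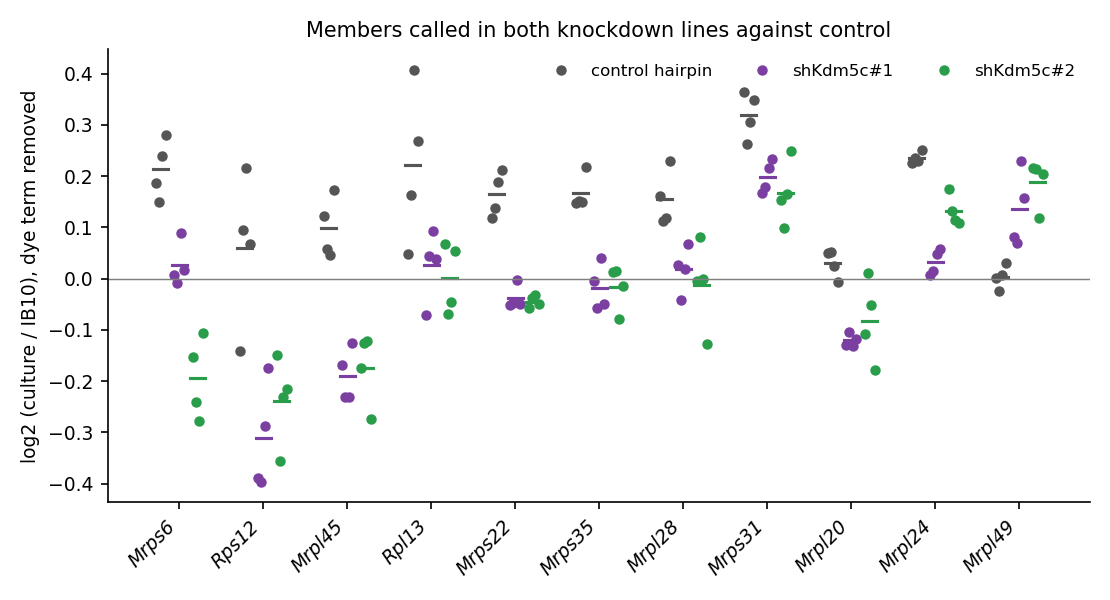
Log2 of culture over IB10 (dye term removed) in each of 4 cultures of the control (grey), shKdm5c#1 (purple) and shKdm5c#2 (green) lines for the 11 members called with the same sign in both knockdown lines; points are cultures and bars are means of 4. Mrps22, Mrps35 and Mrpl28 lie above the reference in control and near it in the knockdown lines, while Mrpl45 lies below the reference in both knockdown lines.

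Among the small-subunit proteins of the mitochondrial ribosome, Mrps6 fell in both knockdown lines. Its values were 0.19, 0.15, 0.24 and 0.28 in control cultures A to D, 0.0078, -0.0086, 0.09 and 0.02 in shKdm5c#1 and -0.15, -0.24, -0.28 and -0.11 in shKdm5c#2. The 3 lines did not overlap, with control highest and shKdm5c#2 lowest. The differences from control were -0.19 ± 0.04 (limma adjusted p = 0.00515) and -0.41 ± 0.04 (limma adjusted p = 2.7e-06), and the 2 knockdown lines differed by 0.22 ± 0.04 (limma adjusted p = 0.00152). A second, dimmer Mrps6 probe gave -0.25 and -0.41 against control, both called.

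Mrps22, a small-subunit protein in which human mutations cause a respiratory chain deficiency, measured 0.12, 0.14, 0.19 and 0.21 in control, -0.05, -0.05, -0.0016 and -0.05 in shKdm5c#1 and -0.06, -0.04, -0.03 and -0.05 in shKdm5c#2. All control cultures were above the reference and all knockdown cultures just below it, with no overlap. The differences from control were -0.20 ± 0.03 and -0.21 ± 0.03 (limma adjusted p = 0.000251 and 0.000127). Mrps35 gave 0.15, 0.15, 0.15 and 0.22 in control, -0.005, -0.06, 0.04 and -0.05 in shKdm5c#1 and 0.01, 0.02, -0.08 and -0.01 in shKdm5c#2, again with every control culture above every knockdown culture. It differed from control by -0.18 ± 0.04 and -0.18 ± 0.04. Mrps31 was 0.32 ± 0.03 against IB10 in control, the highest value of any member there, and 0.20 and 0.17 against IB10 in the knockdown lines. It differed from control by -0.12 ± 0.04 and -0.15 ± 0.04. All 3 of its values against IB10 were called.

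Of the large subunit, Mrpl45, a protein related to the membrane-binding part of the yeast inner-membrane translation machinery, measured 0.12, 0.06, 0.05 and 0.17 in control, -0.17, -0.23, -0.23 and -0.13 in shKdm5c#1 and -0.17, -0.13, -0.12 and -0.27 in shKdm5c#2. Every knockdown culture was below the reference and every control culture above it. The differences were -0.29 ± 0.04 and -0.27 ± 0.04 (limma adjusted p = 0.000145 and 0.00017). Its dimmer probe gave -0.22 (called) and -0.11 (not called, adjusted p = 0.051 in the fit over all probes). Mrpl24 lay between 0.23 and 0.25 in control, between 0.0075 and 0.06 in shKdm5c#1 and between 0.11 and 0.18 in shKdm5c#2, so that the 3 lines did not overlap. Mrpl28 fell by 0.14 and 0.17 on the log2 scale, but its second probe gave -0.0052 and -0.04, neither called. Mrpl20 fell by 0.15 and 0.11, and the second of these lost its call when any 1 of 11 cultures was left out.

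Mrpl49 was the member that rose in both lines. It measured 0.00045, -0.02, 0.0073 and 0.03 in control, 0.08, 0.07, 0.23 and 0.16 in shKdm5c#1 and 0.21, 0.21, 0.12 and 0.20 in shKdm5c#2, with all control cultures below all others. The differences were 0.13 ± 0.04 and 0.18 ± 0.04 (limma adjusted p = 0.0274 and 0.00239), and all 3 of its probes were above 0 in both comparisons.

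Of the cytosolic members, Rps12, a 40S subunit protein, measured -0.14, 0.09, 0.22 and 0.07 in control, -0.39, -0.40, -0.29 and -0.17 in shKdm5c#1 and -0.15, -0.36, -0.23 and -0.22 in shKdm5c#2. Control culture A was the lowest of its line and lay just above the highest knockdown cultures, and the other control cultures lay well above all of them. The differences from control were -0.37 ± 0.07 and -0.30 ± 0.07 (limma adjusted p = 0.000921 and 0.00412). Rpl13, a 60S subunit protein, measured 0.05, 0.16, 0.41 and 0.27 in control, -0.07, 0.04, 0.09 and 0.04 in shKdm5c#1 and 0.07, -0.07, -0.04 and 0.05 in shKdm5c#2, with overlap in both comparisons. Its differences of -0.20 ± 0.06 and -0.22 ± 0.06 (limma adjusted p = 0.0379 and 0.0173) lost their call without control C or control D. The probes of Rps12 and Rpl13 were among the 10 cytosolic probes with a median signal under 1000, which held 4 of the 9 calls with shKdm5c#1 and 4 of the 7 with shKdm5c#2. Ribosomal protein genes have many processed pseudogenes, and cross-hybridisation with such copies cannot be told apart here.

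Among cytosolic members with several probes, 3 were called against control with shKdm5c#1 and 2 with shKdm5c#2. In the fit over all probes, another probe was called in the same direction for 0 of these with either hairpin. Among mitochondrial members it was so for 4 of 9 with shKdm5c#1 and 8 of 13 with shKdm5c#2. Further members were called with 1 hairpin. With shKdm5c#1 Rpl26 measured 0.09, 0.13, 0.23 and 0.32 in control and -0.09, -0.25, -0.25 and -0.13 in the knockdown, with no overlap, a difference of -0.38 ± 0.05 (limma adjusted p = 5.21e-05). In shKdm5c#2 it was 0.16, 0.10, 0.17 and 0.13, within the control range. Rpl23 differed by -0.34 ± 0.09 with shKdm5c#1, and its second probe by -0.08, which was not called. Rpl30 was higher by 0.31 ± 0.08 (limma adjusted p = 0.00708), with 0.31, 0.20, 0.21 and 0.43 in the knockdown cultures and -0.03, -0.30, 0.10 and 0.13 in control. All shKdm5c#1 cultures of Rpl30 lay above all control cultures. Rps19bp1 rose by 0.16 ± 0.05, close to the threshold (limma adjusted p = 0.0493).

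Among mitochondrial members with shKdm5c#1, Mrpl13 rose by 0.27 ± 0.04 (limma adjusted p = 0.00016). Its cultures measured 0.28, 0.27, 0.39 and 0.30 against 0.02, 0.005, 0.05 and 0.09 in control and 0.03, -0.0032, -0.12 and -0.0031 in shKdm5c#2, so that shKdm5c#1 stood above both other lines. Mrpl18 and Mrps15 rose by 0.15 and 0.15. Mrpl55 was -0.23 and Mrpl22 -0.21 against control, both called, and neither passed the test with shKdm5c#2 (-0.04 and -0.09).

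With shKdm5c#2 the 60S protein Rpl13a, in mammals also a part of an interferon-induced translation silencing complex, measured -0.17, -0.31, -0.32 and -0.32, below every control culture (-0.05, 0.06, 0.07 and 0.04). The difference was -0.31 ± 0.05 (limma adjusted p = 0.000242). In shKdm5c#1 it was -0.01, 0.12, 0.22 and 0.15, and the 2 knockdown lines differed by 0.40 ± 0.05 (limma adjusted p = 2.64e-05). Mrpl1 fell by 0.30 on the log2 scale, with overlapping cultures. Mrps34 rose by 0.21 and Mrpl43 by 0.17, both with every knockdown culture above every control culture.

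**Figure D3:**
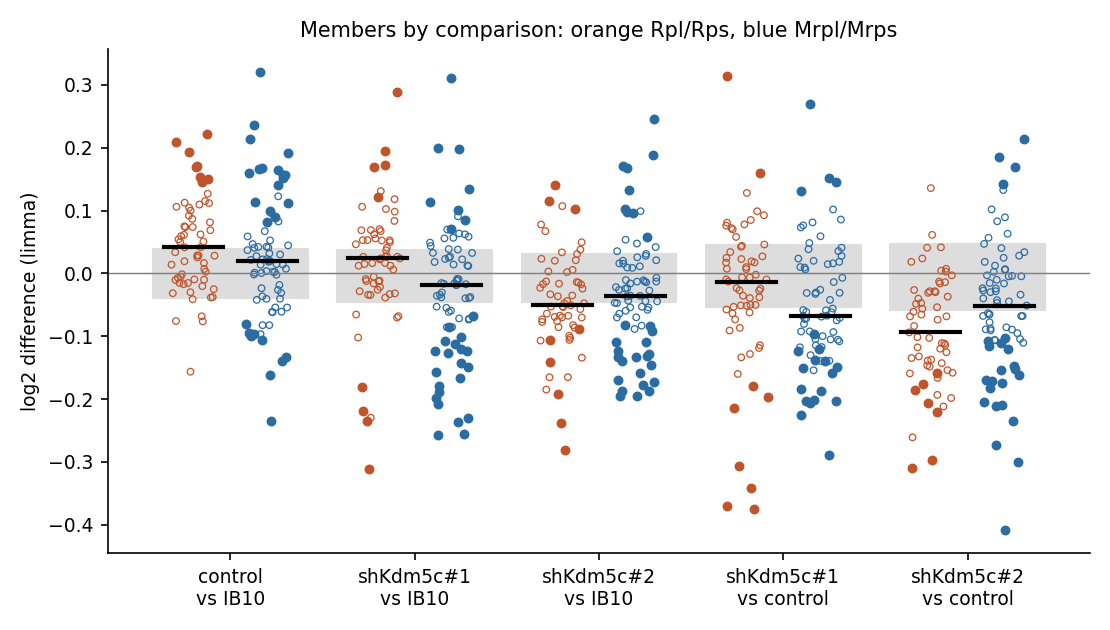
Fitted log2 difference of each of 61 Rpl/Rps (orange) and 75 Mrpl/Mrps (blue) members in 5 comparisons; filled points passed a limma adjusted p under 0.05, black bars are class medians and grey bands span the middle 50 percent of all 18322 genes. The cytosolic median sits lowest, at -0.09, in shKdm5c#2 against control.

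The 2 classes also differed as measurements. As measured, the median of the cytosolic members lay between -0.30 and -0.07 on the 6 arrays with the culture in Cy3 and between 0.09 and 0.24 on the 6 with it in Cy5, in all 3 lines. The mitochondrial median lay between -0.01 and 0.09 in Cy3 and between -0.10 and -0.02 in Cy5. The dye term (log2 in Cy5 minus log2 in Cy3) had a median of 0.30 over cytosolic members and reached 1.82 for Rplp0, a protein of the ribosomal stalk, and 1.79 for Rpl23. It passed the threshold for 42 of 61 cytosolic members (68.9%), 37 of them higher in Cy5. Of 75 mitochondrial members 41 passed (54.7%), 39 of them lower in Cy5, beside 36% of all genes. Other genes in the intensity range of the middle of each class leaned the same way. Those in the cytosolic range were dimmer than the members, with a median mean log2 intensity of 13.26 against 14.02. In the cytosolic range 64.2% passed, 225 higher in Cy5 and 49 lower. In the mitochondrial range 47.5% passed, 196 higher and 626 lower. The median dye term of these genes was 0.12 and -0.06.

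**Figure D4:**
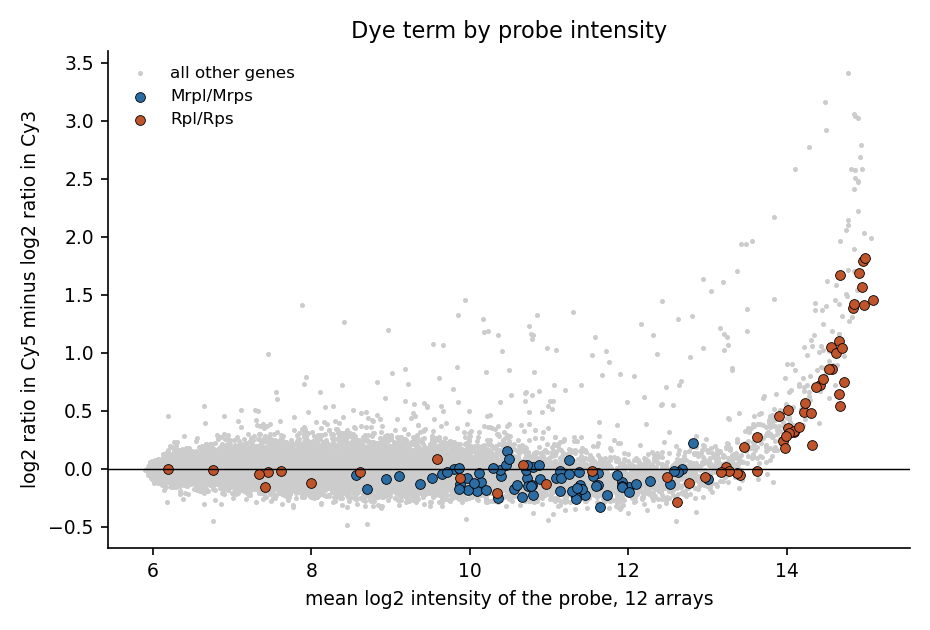
Dye term of each gene (log2 ratio with the culture in Cy5 minus that in Cy3) against the mean log2 intensity of its probe over 12 arrays, with Rpl/Rps in orange, Mrpl/Mrps in blue and all other genes in grey. Above a mean log2 intensity of about 14 the term climbs for members and other genes alike, and Rplp0 reaches 1.82.

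The median residual SD between cultures was 0.11 log2 for cytosolic members, 0.06 for mitochondrial members and 0.06 for all genes. For other genes in the cytosolic and mitochondrial intensity ranges it was 0.08 and 0.06. A median sample signal of 10000 or more was found for 39 of 61 cytosolic and 0 of 75 mitochondrial probes, and 5 cytosolic probes passed 65000, near the top of the scale, on at least 1 array. On all 12 arrays and in both channels, the brightest probe was above background for 59 cytosolic members (all but Rpl26-ps1 and Rps28) and 74 mitochondrial members (all but Mrpl38, whose other probes were). No member was left out of the fit. With a median standard error of 0.06 for a cytosolic difference between lines and 0.04 for a mitochondrial one, small cytosolic shifts were the harder to detect.

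**Figure D5:**
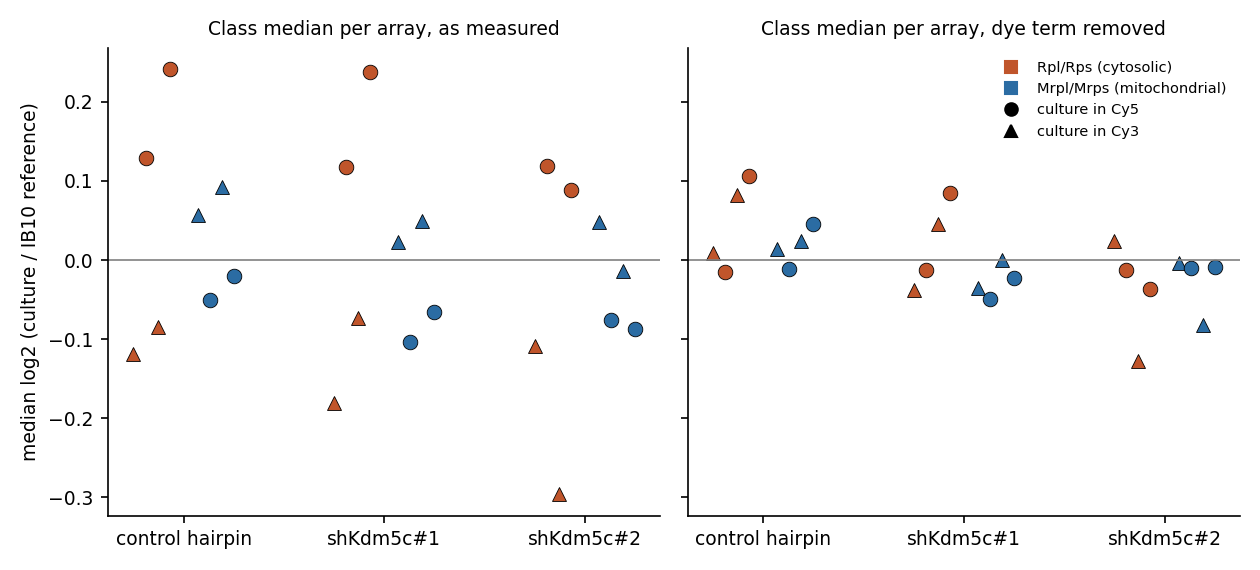
Median log2 ratio (culture over IB10) of the 61 cytosolic (orange) and 75 mitochondrial (blue) members on each of the 12 arrays, as measured on the left and with the dye term removed on the right; circles have the culture in Cy5 and triangles in Cy3. As measured, every cytosolic median is below 0 in Cy3 and above 0 in Cy5, and with the term removed the medians lie between -0.13 and 0.11.

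With the dye term removed, the class medians lay close to 0 in all 3 lines. The cytosolic median was 0.05 ± 0.06 (SD, n = 4 cultures) in control, 0.02 ± 0.06 in shKdm5c#1 and -0.04 ± 0.06 in shKdm5c#2. The mitochondrial median was 0.02 ± 0.02, -0.03 ± 0.02 and -0.03 ± 0.04 in the same lines. Taken within each culture, the cytosolic minus the mitochondrial median was 0.03 ± 0.04 in control, 0.05 ± 0.05 in shKdm5c#1 and -0.01 ± 0.03 in shKdm5c#2, and the means ± SD overlap. Line shKdm5c#2 had the lowest value of the 3 lines for 42 of 61 cytosolic members, while control had the highest for 32 cytosolic and 42 mitochondrial members. The same count was not made over all genes, so it does not set the members of either class apart from other genes. Other genes in the intensity range of the middle of each class had the same order of control, shKdm5c#1 and shKdm5c#2. Their culture medians averaged 0.015, -0.018 and -0.032 in the cytosolic range and 0.0031, -0.0053 and -0.0093 in the mitochondrial range.

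The control line itself differed from the untreated reference. Against IB10, 8 of 61 cytosolic members (13.1%) were higher and 0 lower. Of 75 mitochondrial members 17 were higher and 9 lower (34.7% called). The share of all genes called was 26.3%, with 12.6% higher and 13.7% lower. Among other genes in the intensity range of the middle of the cytosolic members, 31.9% were called, 18% higher and 13.8% lower. In that of the mitochondrial members 39.9% were called, 20.4% higher and 19.5% lower. By limma's unadjusted p under 0.05, 12 cytosolic members were higher and 1 lower, beside 34.7% of all genes (17.1% higher, 17.7% lower). Without control D, 5 cytosolic members were called, beside 19% of all genes. The 3 highest called values of each class were those of Mrps31 (0.32), Mrpl24 (0.24), Mrps6 (0.21), Rpl13 (0.22), Rpl14 (0.21) and Rpl26 (0.19), and the 3 lowest mitochondrial ones those of Mrps5 (-0.23), Mrps34 (-0.16) and Mrps24 (-0.14). For Mrps5 another probe was called in the opposite direction.

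In shKdm5c#1 against IB10, 9 cytosolic members (14.8%) were called, 5 higher and 4 lower. Called mitochondrial members numbered 29 (38.7%), 8 higher and 21 lower. The share of all genes called was 27.1%, with 12.5% higher and 14.5% lower. Among other genes in the intensity range of the middle of the cytosolic members, 38.9% were called, 15.2% higher and 23.7% lower. In that of the mitochondrial members 42.7% were called, 20.6% higher and 22.1% lower. Higher were Mrpl13 (0.31), Mrps31 (0.20), Mrpl34 (0.20), Rpl30 (0.29), Rpl8 (0.19) and the pseudogene locus Rpl18-rs8 (0.17). Lower were Mrpl12 (-0.26), Mrps23 (-0.26), Mrps17 (-0.24), Rps12 (-0.31), Rpl23 (-0.24) and Rpl38 (-0.22). Mrpl12, Mrps17 and Mrps23 were also below 0 in control cultures, at -0.13, -0.10 and -0.05, of which Mrpl12 was called. Mrpl12 is the L7/L12-type stalk protein of the mitochondrial ribosome.

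In shKdm5c#2 against IB10, 9 cytosolic members (14.8%) were called, 3 higher and 6 lower. Called mitochondrial members numbered 29 (38.7%), 9 higher and 20 lower. The share of all genes called was 26.3%, with 11.4% higher and 14.9% lower. Among other genes in the intensity range of the middle of the cytosolic members, 31.9% were called, 11% higher and 20.8% lower. In that of the mitochondrial members 43.3% were called, 20.4% higher and 22.9% lower. The 3 highest called values of each class were those of Mrpl16 (0.24), Mrpl49 (0.19), Mrpl43 (0.17), Rpl26 (0.14), Rpl14 (0.11) and Rpl27a (0.10). The 3 lowest were those of Rpl13a (-0.28), Rps12 (-0.24), Rplp0 (-0.19), Mrps6 (-0.19), Mrps10 (-0.19) and Mrpl44 (-0.19). For 6 named cytosolic members the sign against IB10 turned within 1 dye. Within the Cy5 arrays alone Rplp0 was 0.73 in shKdm5c#2, and Rpl23 was 0.68 and Rpl38 0.12 in shKdm5c#1. Within the Cy3 arrays alone Rpl18-rs8 was -0.20, Rpl30 -0.17 and Rpl8 -0.15 in shKdm5c#1.

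Between the knockdown lines, 10 cytosolic members (16.4%, 6 higher in shKdm5c#1 and 4 lower) and 15 mitochondrial members (20%, 5 higher and 10 lower) were called, beside 18.6% of all genes (10.1% higher, 8.51% lower). Rpl13a (0.40), Rpl30 (0.34), Rpl7 (0.28), Mrpl13 (0.33), Mrps6 (0.22) and Mrpl15 (0.21) were higher in shKdm5c#1. Rpl26 (-0.32), Rpl22l1 (-0.15), Rpl14 (-0.12), Mrps23 (-0.30), Mrpl12 (-0.27) and Mrpl16 (-0.23) were lower. The cytosolic count was 4 without shKdm5c#1 A or shKdm5c#2 C, 5 without shKdm5c#2 B, and 6 without shKdm5c#1 B or shKdm5c#1 D. The mitochondrial count was 8 without shKdm5c#1 A, 9 without shKdm5c#1 D or shKdm5c#2 A, and 26 without shKdm5c#2 D. Without shKdm5c#2 D 21.9% of all genes were called, and in the other fits named here 15.1% to 16.6%.

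Paralogs, X-linked members and pseudogene loci were too few to set their counts apart from the share of all genes called (18.7% with shKdm5c#1 and 22.2% with shKdm5c#2). None of the 5 paralogs was called against control with either hairpin by limma (0 of 5), and their parents Rpl3, Rpl7, Rpl22 and Rpl36a were not called either. By unadjusted p under 0.05, 0 paralogs passed with shKdm5c#1 and 2 were lower with shKdm5c#2, beside 28.6% of all genes (13.7% higher, 15% lower) and 32%. Rpl3l, which in mouse and human is a striated muscle form, was among the dim probes. The X-linked members Rpl10, Rpl36a, Rpl39 and Rps4x, on the chromosome that also carries Kdm5c, were between -0.05 and 0.02 with shKdm5c#1 and between -0.15 and 0.0042 with shKdm5c#2, none called (by unadjusted p under 0.05, 0 and 1, the latter lower). Rps4x was 0.17 against IB10 in the control line (limma adjusted p = 0.0104). Of the pseudogene loci, Rpl32-ps fell by 0.16 on the log2 scale with shKdm5c#2 (limma adjusted p = 0.0359), and Rpl26-ps1 was not above background on every array. Probes of Mrpl52, Mrps7 and Rps24 in shKdm5c#1, and of Mrpl1 and Mrps5 in shKdm5c#2, disagreed in sign against IB10 with both probes called, as did those of Mrpl15 between the knockdown lines.

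Genes that work with ribosomes were compared next, beside 18.7% of all genes called with shKdm5c#1 (9.01% higher, 9.66% lower) and 22.2% with shKdm5c#2 (9.96% higher, 12.3% lower). For these lists no share was taken over genes of the same intensity range. Of 31 measured mitochondrial translation and transcription factors, 1 rose and 10 fell with shKdm5c#1, and 3 rose and 8 fell with shKdm5c#2, with medians of -0.07 and -0.03, so that 35.5% were called with each. Tfb2m, a mitochondrial transcription factor, measured 0.25, 0.28, 0.23 and 0.25 in control, -0.02, -0.08, -0.09 and -0.08 in shKdm5c#1 and -0.03, 0.11, 0.05 and -0.08 in shKdm5c#2. Every control culture of Tfb2m was above all knockdown cultures. It differed by -0.32 ± 0.04 and -0.24 ± 0.04 (limma adjusted p = 2.6e-05 and 0.000279). The release factor gene Mtrf1 was -0.28 with shKdm5c#1 and the GTPase gene Mtg1 -0.24 with shKdm5c#2. Mterfd1 rose by 0.12 with shKdm5c#1, and Pdf, a peptide deformylase, and Oxa1l, an inner-membrane insertase, rose by 0.23 and 0.16 with shKdm5c#2.

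Of 6 measured mitochondrial ribosome genes with other symbols, 1 fell with shKdm5c#1 (16.7%, beside 18.7% of all genes) and 3 with shKdm5c#2 (50%, beside 22.2%). Ptcd3 was -0.15 and -0.28, and Dap3 (-0.22) and Ict1 (-0.11) were called with shKdm5c#2. The cytosolic small-subunit gene Fau was 0.08 and 0.01, not called.

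Of 53 cytosolic translation factors, 11 rose and 2 fell with shKdm5c#1, and 11 rose and 6 fell with shKdm5c#2. The shares called were 24.5% and 32.1%, beside 18.7% and 22.2% of all genes. These factors were bright, with a median mean log2 intensity of 12.14. Among the brightest 5 percent of genes outside the set (median 12.70), 26.6% were called with shKdm5c#1, 11.6% higher and 15% lower. The poly(A)-binding protein gene Pabpc1 measured 0.58, 0.23, 0.27 and 0.50 in shKdm5c#1 against -0.11, 0.02, -0.0069 and 0.009 in control, a difference of 0.42 ± 0.07 (limma adjusted p = 0.000604). The X-linked initiation factor gene Eif2s3x rose by 0.32, while Eif5a (-0.21) and the cap-binding factor Eif4e (-0.19) fell. With shKdm5c#2 Larp1, whose protein binds the pyrimidine tract of ribosomal protein messages, measured 0.08, 0.05, 0.26 and 0.22 against -0.23, -0.11, -0.23 and -0.27 in control. All shKdm5c#2 cultures of Larp1 were above the reference and all control cultures below it. The difference was 0.36 ± 0.05 (limma adjusted p = 2.55e-05), and in shKdm5c#1 it was 0.04 ± 0.05, not called. Eif3a rose by 0.25, while Eif2s2 (-0.25) and Eef1e1 (-0.22) fell.

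Of 84 ribosome biogenesis genes, 8 rose and 12 fell with shKdm5c#1, and 8 rose and 10 fell with shKdm5c#2, with medians of 0.0055 and 0.02. The shares called, 23.8% and 21.4%, were near the 18.7% and 22.2% of all genes. With shKdm5c#1 Brix1 (0.23) and Nolc1 (0.18) rose and Nol11 (-0.38) and Utp18 (-0.33) fell. With shKdm5c#2 Utp14a (0.36) and Wdr74 (0.31) rose and Nop10 (-0.23) and Senp3 (-0.21) fell. Of 20 genes of RNA polymerase I, which transcribes the ribosomal RNA genes, 1 rose and 2 fell with shKdm5c#1, namely Taf1b (0.16), Polr2h (-0.13) and Polr1d (-0.13). With shKdm5c#2, Twistnb rose by 0.11 and Znrd1 fell (log2 -0.18). The shares called, 15% and 10%, were below those of all genes.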

How the data were processed

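RNA of 12 cultures, 4 from each of 3 lines, was measured on 2-colour arrays against IB10 reference RNA. Per the file headers, the deposited raw files hold the intensity of each spot and its local background in both channels, with no subtraction. The derived files hold the authors' normalized intensity for each dye. The deposited table of values equals log2 of that Cy5 over Cy3 signal on all 12 arrays, with column medians between -0.0027 and 0.016, so its scale and direction are known. How the authors normalized and centred is not given in the sources used here.

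The raw intensity was used. Background was corrected with normexp (offset 50) and ratios were normalized by loess within each array, with control spots at weight 0, in limma 3.58.1 under R 4.3.3, and turned to culture over reference. Of 41174 gene spots, 34186 had 1 symbol in the platform annotation and 6988 none. Each of the 18322 genes was represented by its brightest probe on average, with no filter. In the culture's channel, 84.4 to 96.4 percent of an array's gene spots passed background by 2 background SDs. The number of arrays limits the precision. For all genes a linear model was fitted with the 3 lines and the dye as terms (8 residual and 7.64 prior degrees of freedom), with 6 contrasts and limma's p-values adjusted by Benjamini-Hochberg. A second fit took all probes.

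The script was tested on simulated data. Of the 136 members, 134 matched RefSeq (GRCm38.p6) by symbol and 2 by synonym, and 114 had a promoter entry. Members and gene lists were chosen with earlier results of these data known. Named genes are Kdm5c, the 3 highest and 3 lowest called members per class and contrast, members called alike in both knockdown lines, paralogs with their parents, X-linked members, symbols that are no ribosomal protein, members whose probes disagree, and the 2 largest called values each way in each pathway list. Same-lettered cultures were checked for pairing: their deviations correlated at -0.28 to 0.28, and 3 of 12 cultures correlated best with their own letter, so letters were not used as a block. Alternatives were another normalization, the authors' values, other background settings, a filter on dim genes, the mean of all probes, no dye term, each dye alone, a replicate block and leaving out each culture.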

Additional observations from a re-analysis of the deposited data

Results flagged for a closer look

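In 9 of the 177 groups of 4 cultures checked, 1 culture lay far from the other cultures of its line. Chance gives about 1 in 20 such groups, so this number is near what chance gives. The values below are log2 of culture over IB10 with the dye term removed. In culture C of shKdm5c#1, Mrpl43 measured 0.0041 and Mrps22 -0.0016, each above the other cultures of that line. In culture C of shKdm5c#2, Mrpl49 measured 0.12, Mrpl55 -0.091, and the median of all mitochondrial members -0.082, each below the other cultures of the line. Mrps35 measured 0.22 in control culture D and Rpl8 0.37 in control culture A, both high. Rpl13a measured -0.17 in shKdm5c#2 A, above its line, and Rpl39 -0.32 in shKdm5c#1 B, below its line.

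The knockdown lines differed from each other, by limma's test of that difference, for 25 members. As shKdm5c#1 minus shKdm5c#2, the cytosolic values were 0.40 for Rpl13a, 0.34 for Rpl30, 0.28 for Rpl7, 0.24 for Rplp0, 0.23 for Rpl8 and 0.13 for Rpl4. They were -0.32 for Rpl26, -0.15 for Rpl22l1, -0.12 for Rpl14 and -0.11 for Rpl27a. The mitochondrial values were 0.33 for Mrpl13, 0.22 for Mrps6, 0.21 for Mrpl15, 0.13 for Mrpl36 and 0.12 for Mrpl44. They were -0.30 for Mrps23, -0.27 for Mrpl12, -0.23 for Mrpl16, -0.20 for Mrpl43, -0.18 for Mrpl55, -0.14 for Mrpl52, -0.13 for Mrpl27, -0.11 for Mrpl11, -0.11 for Mrps34 and -0.10 for Mrpl24. The share of members that differed was 16.4% of cytosolic and 20% of mitochondrial members, beside 18.6% of all genes.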

How the results depend on the processing

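Numbers of members called, in the order cytosolic then mitochondrial, depended most on the normalization and on the dye. Median centring in place of loess called 0 and 0 in shKdm5c#1 against IB10, 1 and 1 in shKdm5c#2 against IB10, 0 and 0 in control against IB10, 1 and 0 in shKdm5c#1 against control, 0 and 0 in shKdm5c#2 against control, and 1 and 0 between the knockdown lines, while 2.29% to 6.57% of all genes were still called. Without the dye term these were 3 and 18, 3 and 18, 4 and 12, 2 and 6, 2 and 10, and 2 and 5. The shares of all genes called without it were 17.4%, 18%, 17.3%, 10.6%, 14.2% and 11%. With the culture in Cy5 alone, the cytosolic counts were 31, 25, 30, 2, 2 and 2, and the mitochondrial counts that moved by over 1.5 times were 10 in shKdm5c#2 and 13 in control against IB10, 3 and 3 against control, and 4 between the knockdown lines. With Cy3 alone, cytosolic counts were 28, 39 and 32 against IB10 and 6 between the knockdown lines, and mitochondrial counts 16 in shKdm5c#2 against IB10 and 7 in shKdm5c#1 against control. Of all genes 15.9%, 13.7% and 15% were called against IB10 in Cy5 alone, 4.43% and 7.08% against control and 4.04% between the knockdown lines. In Cy3 alone the shares in that order were 28.5%, 27.9%, 25.2%, 10.6%, 15% and 12.3%. Fits to 1 dye use fewer arrays, and their ratios against IB10 keep the dye term. The cytosolic minus mitochondrial median against IB10 was 0.24, 0.17 and 0.22 in Cy5 and -0.19, -0.23 and -0.16 in Cy3 for shKdm5c#1, shKdm5c#2 and control, and -0.078 in shKdm5c#2 against control under median centring. The mean of all probes called 13 cytosolic members in control against IB10 and 13 in shKdm5c#2 against control. The shares of all genes called there were 25.5% and 22.6%. The authors' values called 4 cytosolic members in shKdm5c#2 against control and 6 between the knockdown lines, and an offset of 16 called 3 and 4, with 9 mitochondrial members between the knockdown lines. In these comparisons 22.1% and 18.2% of all genes were called with the authors' values and 20.9% and 17.1% with the offset of 16. The cause of the changes between settings was not tested.

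Leaving out each culture in turn gave 5 to 11 cytosolic members in control against IB10, 11 to 26 mitochondrial members in shKdm5c#1 against control, 2 to 14 cytosolic members in shKdm5c#2 against control, and 4 to 10 cytosolic and 8 to 26 mitochondrial members between the knockdown lines. Over the same fits and in the same order of comparisons, 19% to 30%, 15.2% to 22.8%, 18.6% to 23.6% and 15.1% to 21.9% of all genes were called. The letters did not pair the cultures. With the letter as a replicate block in place of the dye term, 9 cytosolic and 24 mitochondrial members were called in shKdm5c#1 against control and 10 and 25 in shKdm5c#2 against control. With that block 20.9% and 24.7% of all genes were called. Leaving out paralogs, pseudogenes and Rps19bp1, chosen after seeing the data, gave cytosolic counts of 8 and 6 against control.

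Signs turned for 6 named values, all against IB10 and within 1 dye: Rpl18-rs8 (-0.20), Rpl30 (-0.17) and Rpl8 (-0.15) in Cy3 and Rpl23 (0.68) and Rpl38 (0.12) in Cy5 for shKdm5c#1, and Rplp0 (0.73) in Cy5 for shKdm5c#2. Of 80 named member values, 61 kept their call and sign in all 12 fits that left out 1 culture, and 3 kept them in all alternatives. For saturated or very bright cytosolic probes, signal limits what a ratio can show.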
